A study of Mus musculus with 18 samples.

Results

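Male E14 mouse embryonic stem cells (mESCs) were transfected for 24 h with the 5p siRNA to *Stag1* (5p) or with scrambled siRNA (scr), and the RNA of the 4 libraries compared here, of the 18 samples of the series, was read across all genes. The 4 are the 5p and scr libraries of replicate sets 2 and 3, 1 of each kind in each set, paired by the set number in the labels. All were grown in serum (FCS) with LIF on gelatin and transfected with RNAiMax, and total RNA was depleted of rRNA and sequenced. 5p is a custom duplex of 1 sequence toward the 5′ end of the *Stag1* mRNA, and 3p a pool of commercial siRNAs toward its 3′ end. SP is a pool over the gene. The catalogue numbers of the 3p siRNAs recur in the SP pool apart from the prefix letter, so 3p and SP are not independent comparators. SATS is a mixture of enzymatically prepared siRNAs to a *Stag1* 5′ UTR. Each of these has 1 library in sets 2 and 3. E14 is an established line, so no animal or clone stands behind the set numbers. A 5p knockdown was made to lower full-length *Stag1* while keeping isoforms that lack the targeted exon, and the question asked of these libraries is which genes then stood higher or lower than under scr.

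*Stag1* encodes a subunit of cohesin, the ring complex that holds sister chromatids together and forms chromatin loops, and a cohesin ring carries either STAG1 or its paralog STAG2. An siRNA is loaded into Argonaute as a duplex, of which the guide strand is kept and the passenger strand discarded. A guide that pairs with a transcript over its whole length directs cleavage of that transcript. Bases 2 to 8 of a guide, its seed, can also pair with other transcripts, mostly in the 3′ UTR, in the way of a microRNA, and such transcripts can be lowered without cleavage. A seed match is therefore described below beside each gene's values. A match is a run of letters and not a measured binding site.

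The 19 bases of *Stag1* that pair with the 5p duplex lie at chr9:100738040-100738058 on the plus strand of GRCm38 (mm10), within exon 4 of 33 of the transcript Stag1-201 and within codons 65 to 71 of its 1222. Of 17 annotated *Stag1* transcripts 8 hold the target. The coding transcripts Stag1-205, Stag1-211 and Stag1-214 do not. The target is shown with 4 bases on each side (chr9:100738036-100738062), and its capitals mark the octamer GTGGAAGA that faces bases 1 to 8 of the guide.
Stag1 target: ttcgaggagcaggtcGTGGAAGAgcca

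The next sequences are 3′ UTR stretches of genes that stood lower in 5p and are described below, on the strand of the mRNA. Capitals mark the heptamer GTGGAAG, which pairs with bases 2 to 8 of the guide. Where an a follows the capitals, the octamer is complete. The lines give *Sycp3*, *Selt*, *Tmem168* and *Bahd1* from among the largest falls, *Lin28a* and *Ezh1* from the gene lists, and the paralog *Stag2*. Outside these letters no stretch is identical to the *Stag1* target or to another stretch, though short runs are shared. After the heptamer *Selt* reads agcca, as the target does, and *Sycp3* and *Selt* both read ttaa before it.
Sycp3, chr10:88473071-88473097, plus strand: gcttatttaaGTGGAAGatttttgttc
Selt, chr3:58591871-58591897, plus strand: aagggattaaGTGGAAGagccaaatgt
Tmem168, chr6:13582619-13582645, minus strand: attatgggatGTGGAAGatattgggaa
Bahd1, chr2:118923779-118923805, plus strand: ggtatacactGTGGAAGatggcactag
Bahd1, chr2:118923940-118923966, plus strand: gccctgatccGTGGAAGataaactgtt
Lin28a, chr4:134004957-134004983, minus strand: tgccagattaGTGGAAGcctgccatgc
Ezh1, chr11:101191907-101191933, minus strand: gaagaggagaGTGGAAGatcctgcagt
Stag2, chrX:42275318-42275344, plus strand: cgttttctaaGTGGAAGaggaaatttg

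The values are reads per gene divided by the authors' DESeq2 size factor of the library, called normalised values here. The scr libraries held 35559861 reads on genes in set 2 and 40072547 in set 3, and the 5p libraries 32137666 and 34151622. The residual rRNA gene *Rn45s* took 16.4% and 21.9% of the reads in scr and 18.6% and 23.9% in 5p. All 9 ES cell markers checked were present in each library, at 2397 or more, and their summed normalised value was 44477 and 44674 in scr and 43582 and 48413 in 5p. Summed fibroblast markers differed between the sets, at 2861 and 551 in scr and 2666 and 341 in 5p.

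*Stag1* fell in 5p. It stood at 1876 and 2113 in scr and at 442 and 401 in 5p, for sets 2 and 3. Both 5p libraries were far below both scr libraries. The log2 fold change was −2.24 (SE 0.0966, 95% interval −2.45 to −2.03, Benjamini-Hochberg adjusted p = 3.66e-08 over 16490 genes in limma, n = 2 against 2). On the same scale 5p and 3p differed by 0.15 (95% interval −0.05 to 0.36, adjusted p = 0.489 in limma), so a difference in depth of knockdown of this size was not resolved. *Stag1* values are sums over all isoforms, and isoforms without exon 4 were not measured apart.

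The paralog *Stag2* stood at 1811 and 2895 in scr and at 1434 and 2092 in 5p. The 5p library was the lower of the pair in each set, while the groups overlapped because both kinds were higher in set 3. The fall was 0.40 on the log2 scale (log2 fold change −0.40, SE 0.0844, 95% interval −0.58 to −0.22, adjusted p = 0.0229 in limma). *Stag2* was also lower in 5p than in 3p, in which it stood at 2004 and 3265, by a log2 difference of −0.56 (adjusted p = 0.00247 in limma), and lower than in SP by −0.53 (adjusted p = 0.0028). Its 3′ UTR of 1899 bases on the X chromosome holds 1 octamer, starting at base 42. *Stag3*, the meiotic paralog, stood at 397 and 280.4 in scr and at 408 and 333 in 5p (log2 fold change 0.14, adjusted p = 0.672 in limma).

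Across the 16490 genes tested, 391 passed an adjusted p of 0.05 in 5p against scr (2.37%), and falls outnumbered rises. There were 109 genes higher in 5p (0.661%) and 282 lower (1.71%). All 391 moved the same way in both sets, as did 62.7% of all genes tested. The groups did not overlap for 81 of the 109 and 221 of the 282, against 28.1% of all genes. These genes were called from the same libraries, so agreement between sets and lack of overlap are partly given by the choice. The calls come from limma with the replicate set as a block and an estimate of spread shared with the 3p, SP and SATS libraries of the same sets. Without the block 2 genes passed, *Stag1* and *Tmem168*, and the unadjusted p of 598 was under 0.05. In the blocked design, edgeR on the recovered reads called 397, of which 378 were among the 391. Leaving out a library moved the count to 22 without scr of set 3, 81 without scr of set 2, 56 without 5p of set 3 and 422 without 5p of set 2. The count of rises was 3, 13, 7 and 57 in that order.

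Most changes were small. The median log2 fold change of the 109 rises was 0.57 (quartiles 0.45 and 0.73), and that of the 282 falls −0.54 (quartiles −0.68 and −0.43). Only 11 rises and 17 falls were past 2-fold. The falls lay at higher expression, with a median normalised value of 702 over the 4 libraries, against 320.4 for the rises and 196 for all genes. Nearly all called genes were protein coding (109 of 109 and 281 of 282, against 91.9% of all genes). On the X chromosome lay 10 of the 109 rises (9.17%) and 4 of the 282 falls (1.42%), beside 3.63% of all genes.

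**Figure D1:**
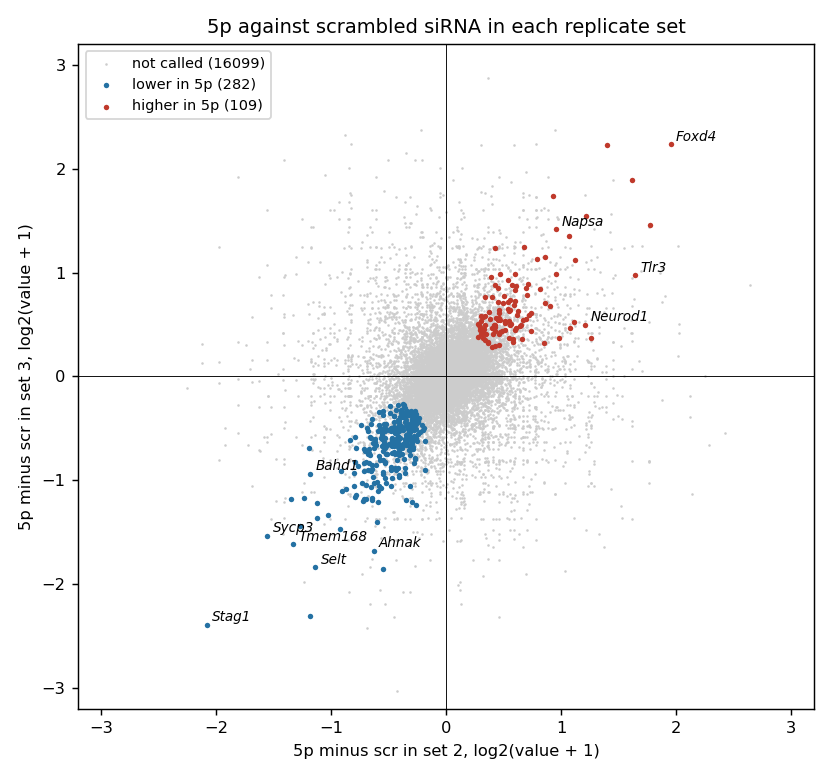
Each point is a gene, with the log2 ratio of 5p to scr in set 2 on the x axis and in set 3 on the y axis, on the log2(value + 1) scale. The 282 genes called lower sit in the lower left and the 109 called higher in the upper right, with *Stag1*, *Sycp3*, *Selt* and *Tmem168* at the far lower left and most called genes within 1 log2 unit of no change.

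The largest falls after *Stag1*, among called genes with a mean of at least 50 over the 4 libraries, were in a meiotic gene, an endoplasmic reticulum selenoprotein and a transmembrane protein. *Sycp3*, a structural protein of the synaptonemal complex, stood at 213 and 264 in scr and at 71.6 and 90.7 in 5p. *Selt*, which encodes selenoprotein T, stood at 2232 and 2322 in scr and 1013 and 648 in 5p. *Tmem168* stood at 456 and 464 in scr and 180 and 151 in 5p. For all 3 genes the higher 5p library was below the lower scr library. The log2 fold changes were −1.54 for *Sycp3* (SE 0.167, adjusted p = 0.000402), −1.49 for *Selt* (SE 0.162, adjusted p = 0.000402) and −1.48 for *Tmem168* (SE 0.105, adjusted p = 1.37e-05) in limma, after Benjamini-Hochberg adjustment. Their 3′ UTRs hold 1, 3 and 2 heptamers, with an octamer in each gene. In 3p, *Sycp3* stood at 252 and 357, *Selt* at 2139 and 2596 and *Tmem168* at 391 and 448, so that 5p was lower by −1.88, −1.54 and −1.34 on the log2 scale.

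*Bahd1*, a protein of silenced chromatin, fell from 384 and 248 to 168 and 129 (log2 fold change −1.06, adjusted p = 0.000169 in limma), with no overlap between groups. It has 3 heptamers in its 3′ UTR, 2 of them within octamers. *Snx7*, a sorting nexin, stood at 171 and 115 in scr and 83.0 and 44.9 in 5p (log2 fold change −1.18), and an octamer lies near the start of its 3′ UTR. *Tsr2*, a factor of ribosome maturation, stood at 373 and 469 in scr and 230 and 207 in 5p (−0.94), with 1 heptamer. *Ptgs2*, the inducible prostaglandin synthase, stood at 227 and 98.0 in scr and 95.4 and 43.0 in 5p (−1.20), with 1 heptamer. In *Snx7* and *Tsr2* every 5p library lay below every scr library, as it did in *Ptgs2* by a small margin.

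Most of the other leading falls described here hold the heptamer in the coding sequence or in neither part. *Ahnak*, a very large scaffold protein, stood at 27329 and 15521 in scr and 17642 and 4847 in 5p, with no heptamer in its 3′ UTR and 22 in its coding sequence of 16971 bases (log2 fold change −1.16, adjusted p = 0.0115 in limma). Its groups overlapped, since 5p in set 2 stood above scr in set 3. *Nefm*, a neurofilament subunit, has 3 in its coding sequence (−1.20), and *Ndufa5*, a subunit of respiratory complex I, has 4 (from 136 and 109 to 88.8 and 40.7). *Slc20a1*, a sodium-phosphate transporter, has none in either part and fell from 3896 and 4056 to 2249 and 1814 (−0.98, adjusted p = 9.57e-05). *Csnk1a1*, the casein kinase that primes beta-catenin for destruction, has none in the transcript used (Csnk1a1-207, a 3′ UTR of 302 bases) but 1 in the 3′ UTR of another annotated transcript, and fell from 4085 and 3832 to 2365 and 1733 (−0.97, adjusted p = 0.000303). Both genes had no overlap between groups. *Vgf*, a neuropeptide precursor without the heptamer, stood at 645 and 174 in scr and 296 and 74.0 in 5p (−1.17). *Axl*, a receptor tyrosine kinase with 1 octamer in the 3′ UTR, fell by 0.96 on the log2 scale against scr but differed from 3p by −0.01 (adjusted p = 0.98), as it stood at 489 and 177 in 3p and 622 and 137 in 5p.

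The rises were fewer and led by genes at low or moderate expression. *Napsa*, an aspartic protease, stood at 29.4 and 35.3 in scr and at 57.7 and 95.8 in 5p, with no overlap (log2 fold change 1.18, SE 0.208, adjusted p = 0.00795 in limma). *Tmem123*, a membrane mucin-like protein, had the highest level of the 15 leading rises, 721 and 770 in scr and 1168 and 1393 in 5p (0.77, SE 0.0979, adjusted p = 0.00124), again with no overlap. *Lamp2*, a protein of the lysosomal membrane, rose from 666 and 514 to 920.0 and 1018 (0.73), and *Aga*, a lysosomal hydrolase, from 55.4 and 43.6 to 82.6 and 81.0 (0.72). *Reck*, a membrane-anchored inhibitor of matrix metalloproteinases, rose from 139 and 136 to 227 and 235 (0.74). In *Lamp2*, *Aga* and *Reck* each 5p library lay above each scr library.

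*Neurod1*, a neurogenic transcription factor, stood at 91.9 and 148 in scr and 213 and 209.6 in 5p (0.85), and *Dll1*, a Notch ligand, at 73.0 and 142 in scr and 133 and 233 in 5p (0.78). The groups of *Dll1* overlapped and those of *Neurod1* did not. *Taf9b*, a TBP-associated factor (0.96), *Magee1* (0.83) and *Hmgn5*, a nucleosome-binding protein (0.82), lie on the X chromosome. The other leading rises were *Spink1*, a serine protease inhibitor (0.97), *Rassf4* (0.80), *Cyp2b23* (0.79), *Samd9l* (0.77) and *Prmt8*, an arginine methyltransferase (0.74). None of the 15 has the heptamer in its 3′ UTR. Below a mean of 50, *Foxd4* was listed at 0 in both scr libraries and at 2.86 and 3.70 in 5p, and *Slc25a34* stood at 6.29 and 2.38 in scr and 18.1 and 14.8 in 5p. These 2 were chosen after their values were seen. At such levels a value rests on few reads, so the size of the rise is loose.

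**Figure D2:**
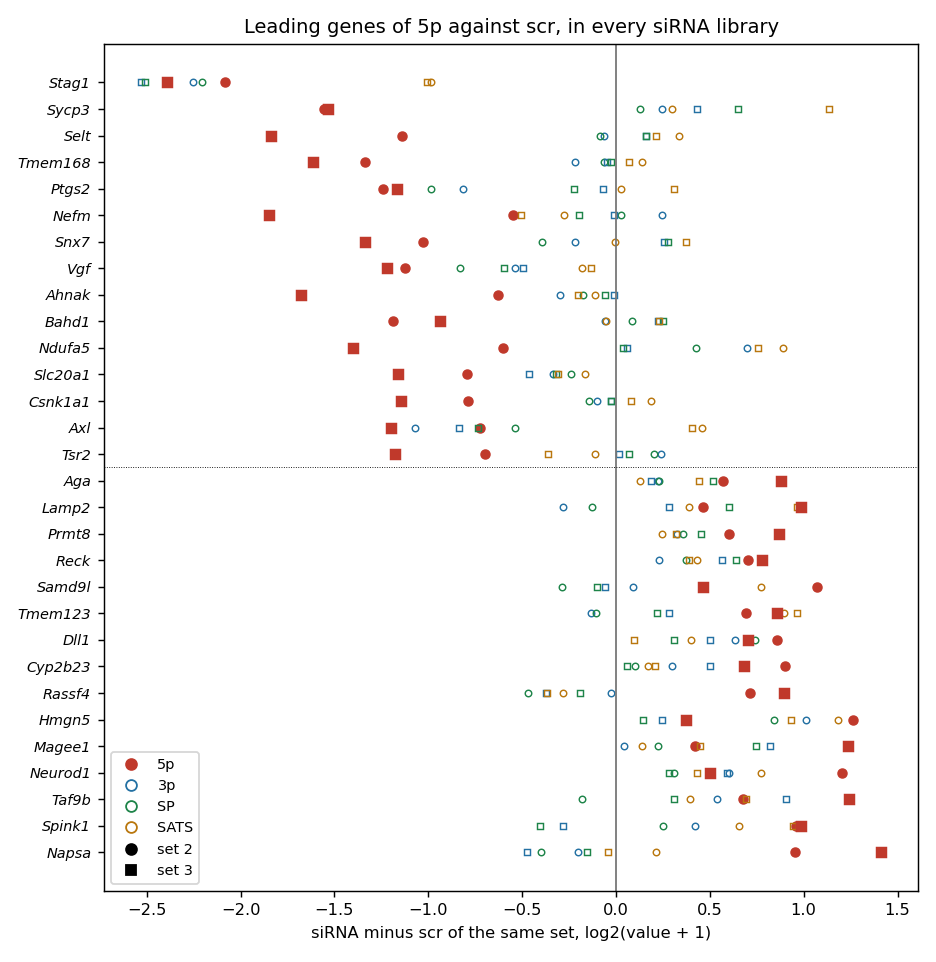
The 15 largest falls (top) and 15 largest rises (bottom) with a mean of at least 50, each as the difference of an siRNA library from scr of the same set on the log2(value + 1) scale, with 5p filled and 3p, SP and SATS open. For *Sycp3*, *Selt*, *Tmem168* and *Bahd1* both filled points lie left of every open point, whereas *Axl* in 3p lies among the filled points and *Dll1*, *Magee1* and *Hmgn5* are right of 0 under each siRNA.

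The same genes were compared with the other siRNA libraries, which lower *Stag1* too, though SATS by less. The log2 fold change of *Stag1* against scr was −2.39 in 3p, −2.36 in SP and −0.996 in SATS, beside −2.24 in 5p. *Stag2* was higher in SATS than in scr (log2 fold change 0.52, adjusted p = 0.0154 in limma). 5p was set against 3p (537 genes called, 3.26%), with 215 higher (1.3%) and 322 lower (1.95%) in 5p. Against SP 949 were called (5.76%), 401 higher (2.43%) and 548 lower (3.32%), and against SATS 1059 (6.42%), 381 higher (2.31%) and 678 lower (4.11%). These comparisons share the 5p libraries with 5p against scr, so a call in both is not independent. Of the 282 falls, 186 (66.0%) were also called lower against 3p, 197 (69.9%) against SP and 210 (74.5%) against SATS, and 149 against all 3. Of the 109 rises, 38 (34.9%), 43 (39.4%) and 41 (37.6%) were also called higher, and 16 against all 3. Without the block no gene passed in 5p against 3p or SP in limma, where the unadjusted p of 674 and 925 was under 0.05, and edgeR and DESeq2 were run only with the block.

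Against scr the other siRNAs called fewer genes in 2 of 3 cases, 47 for 3p (0.285%), 123 for SP (0.746%) and 436 for SATS (2.64%). Over the 282 falls of 5p, the median log2 fold change against scr was −0.54 in 5p, −0.07 in 3p, −0.07 in SP and −0.05 in SATS. Over the 109 rises it was 0.57 in 5p and 0.20 in each of 3p, SP and SATS. These medians share the scr libraries, and the genes were chosen for their difference from them in 5p, so that a value away from 0 in the others is partly given by the choice. Of the 282 falls, 5 were called lower in 3p, 7 in SP and 16 in SATS, and of the 109 rises 2, 5 and 13 were called higher. Of all genes 39, 85 and 123 were called lower (0.237%, 0.515% and 0.746%) and 8, 38 and 313 higher (0.0485%, 0.23% and 1.9%). Each share among the falls and rises was above that of all genes, which the shared scr libraries partly give.

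Seed matches were then counted in the annotated 3′ UTR of 14900 tested genes (of the transcript with the longest coding sequence, GENCODE vM21). The heptamer was in the 3′ UTR of 134 of 281 falls (47.7%), 3 of 106 rises (2.83%) and 1648 of 14513 genes not called (11.4%), against 11.98% of all 14900. The octamer was in 28.1% of the falls, none of the rises and 3.52% of the genes not called, against 3.96% of all. The heptamer CTGCTCC, which pairs with the passenger strand's seed, was in 21.7% of the falls, 13.2% of the rises and 16.2% of the genes not called. No test was run on these shares, and the pattern was known from earlier work on these data. GTGGAAG within GTGGAAGA was counted in both classes.

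The falls also have longer 3′ UTRs, with a median of 1565 bases against 1256.5 for the rises and 942 for all genes, and a longer UTR holds any heptamer more often. Within 3′ UTRs of up to 500 bases the heptamer was in 24.4% of the falls and 2.00% of the genes not called. Above 500 and up to 1000 bases the shares were 33.3% and 6.42%, up to 2000 bases 49.4% and 12.2%, and above 2000 bases 63.5% and 27.0%. In each class of length the falls held the heptamer more often than the genes not called. Among the 25 largest falls with an annotated 3′ UTR 16 held it (64%), among the next 75 there were 40 (53.3%), and among the other 181 there were 78 (43.1%).

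The seed classes moved as groups as well, including genes that were not called. Among genes with a mean of at least 50, the median log2 fold change in 5p against scr was 0.01 for the 9279 without the heptamer in the 3′ UTR, −0.06 for the 1153 with 1, −0.12 for the 172 with 2 and −0.21 for the 32 with 3 or more. Of the 1357 genes with at least 1, 126 were called lower (9.29%) and 3 higher, and 48.6% stood below scr in both sets, against 31.3% of those without. The median of these 1357 was −0.05 in set 2 and −0.09 in set 3. The 445 genes with an octamer had a median of −0.12, with 75 called lower and none higher, and the 912 with the heptamer alone −0.05.

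In 3p, SP and SATS against scr the 1357 genes had medians of −0.00346, 0.000557 and −0.0161 over both sets. In sets 2 and 3 on their own these were −0.03 and 0.01 for 3p, −0.01 and 0.01 for SP, and −0.01 and −0.03 for SATS. The controls differed from scr too over these genes, by −0.02 in untreated cells of set 2 and −0.02 in luciferase siRNA of set 3. For genes without the heptamer these 2 medians were −0.000802 and −0.01. By number of copies (0, 1, 2 and 3 or more) the medians against scr were 0.01, −0.01, −0.03 and −0.05 in SATS, in the same direction as in 5p and smaller. In 3p and SP none of the medians over both sets was further than 0.02 from 0. By set those of 3p were −0.01, −0.02, −0.04 and −0.03 in set 2, and −0.01, 0.01, 0.03 and 0.02 in set 3. In 5p relative to SATS, a comparison without scr, the medians by number of copies were −0.01, −0.04, −0.08 and −0.22. Against the other controls, 5p had medians over the 1357 genes of −0.04 relative to untreated cells of set 2 and −0.07 relative to luciferase siRNA of set 3. Each control is 1 library, and genes without the heptamer stood at 0.01 and 0.02. The levels varied with 3′ UTR length. Above 2000 bases, the 801 genes with the heptamer stood at 0.01 and −0.07 relative to these controls, and the 2003 without it at 0.09 and 0.01. Relative to 3p the median of the 1357 genes was −0.06. Genes without a 3′ UTR heptamer were then ordered by copies in the coding sequence, with medians of 0.03 for none (6633 genes), −0.03 for 1 (2017), −0.06 for 2 (453) and −0.08 for 3 or more (176). SATS shared this order, with medians against scr of 0.02, −0.02, −0.05 and −0.09 over the same classes. 5p relative to SATS had −0.000261, −0.0203, −0.00629 and −0.0136. The medians of 3p against scr were −0.00485, −0.00907, 0.00445 and 0.0234. Those of SP went the other way, at −0.0105, 0.00349, 0.0171 and 0.0602. Relative to 3p, 5p had 0.03, −0.03, −0.06 and −0.09, and relative to SP 0.04, −0.04, −0.09 and −0.12. In set 2 the medians of 5p against scr for 2 and for 3 or more copies were −0.0147 and −0.0043, so most of the shift of these classes lay in set 3 (−0.09 and −0.14). Relative to 3p they were −0.00738 and 0.0399 in set 2, and −0.12 and −0.21 in set 3. For 3 or more copies 3p itself stood at −0.03 against scr in set 2 and 0.06 in set 3. Over the 281 falls, 76 (27.0%) held the heptamer in the coding sequence alone and 71 (25.3%) in neither part, the last including *Slc20a1* and *Vgf*, which have none in any annotated 3′ UTR, and *Csnk1a1*, which has 1 in another transcript. Neither part held it in 81.1% of the rises and 64.2% of all genes. The coding sequence alone held it in 16.0% of the rises and 23.8% of all genes, beside the 27.0% of the falls. That class leaves out genes with a 3′ UTR match, which were 47.7% of the falls and 11.98% of all genes. With or without a 3′ UTR match, the coding sequence held it in 47.0% of the falls, 17.0% of the rises and 27.1% of all genes. Coding length was not taken into account.

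**Figure D3:**
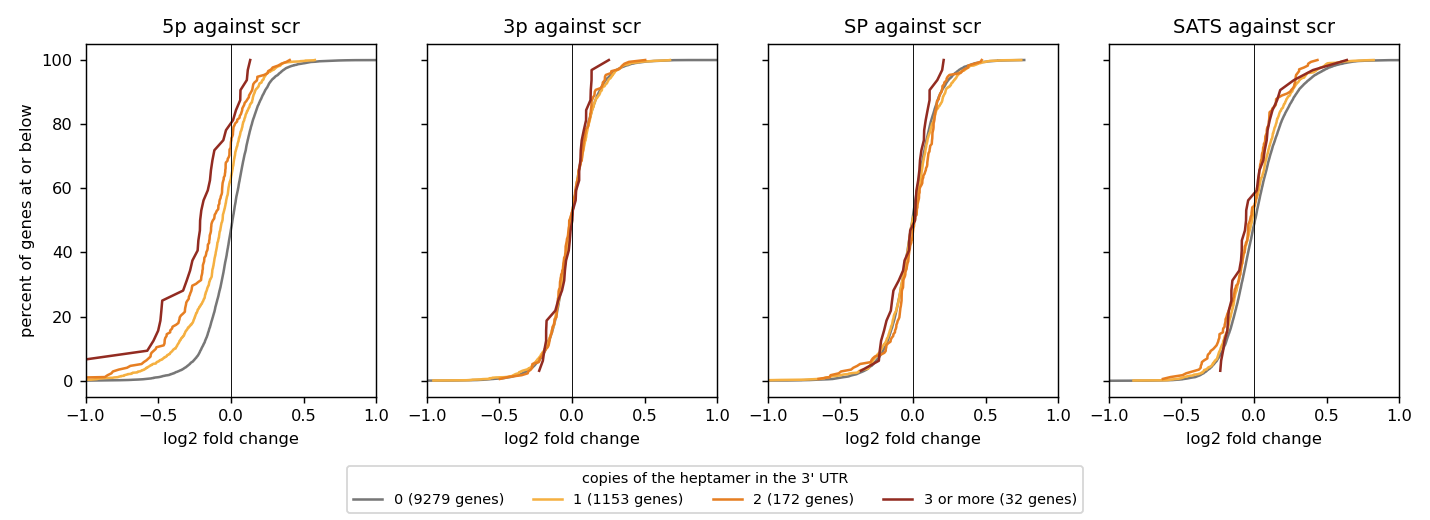
Cumulative percent of genes (y axis) at or below a log2 fold change against scr (x axis) for genes with 0, 1, 2 or 3 or more copies of the heptamer in the 3′ UTR, in 4 panels for 5p, 3p, SP and SATS. In the 5p panel the curves shift to the left with the number of copies, with medians of 0.01, −0.06, −0.12 and −0.21, and in the 3p and SP panels they lie on each other near 0. In the SATS panel they also shift to the left, by less, with medians of 0.01, −0.01, −0.03 and −0.05. All panels use the fit over both sets.

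Of 1738 mature mouse microRNAs in RefSeq, 1 has the guide's seed CUUCCAC, mmu-miR-7686-5p, and its hairpin gene had 0 reads in the 4 libraries. Mature microRNAs are too short for libraries of this kind, so their level was not measured. The called genes with at least 2 heptamers in the 3′ UTR and the largest falls included *Selt*, *Tmem168*, *Gdf6*, *Klhdc8a*, *Bahd1*, *Samd5* and *Nedd9*. *Gdf6*, a BMP-family ligand, fell from 44.9 and 27.8 to 20.0 and 10.2 (log2 fold change −1.24), and *Nedd9*, a scaffold of focal adhesions, from 227 and 96.8 to 129 and 50.4 (−0.87). Both fell within each set. The groups of *Gdf6* did not overlap, and those of *Nedd9* did, because scr was lower in set 3.

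Genes of the Lin28 and let-7 pathway were lower in 4 of 16 tested members, with none higher, beside 1.71% of all genes called lower. The list median was −0.13, against 0.01 for all genes. *Lin28a*, the RNA-binding protein that blocks let-7 maturation, stood at 8704 and 9992 in scr and 5997 and 5629 in 5p, without overlap (log2 fold change −0.68, SE 0.0855, adjusted p = 0.00113 in limma). It was also below 3p, at 8643 and 9769.7 (log2 difference −0.66, adjusted p = 0.00096). *Trim71*, the let-7 regulated ubiquitin ligase, stood at 8248 and 8478 in scr and 7146 and 5938 in 5p (−0.36, adjusted p = 0.0432), and *Arid3a* changed by −0.38 (adjusted p = 0.0486). Of these 3 genes, *Trim71* holds the octamer in the 3′ UTR, *Lin28a* the heptamer and *Arid3a* neither. *Arid3a* was not called by edgeR.

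Core pluripotency genes other than *Lin28a* were not called (10 tested, 1 lower). *Pou5f1*, the gene of OCT4, stood at 7545 and 8967 in scr and 7128 and 8509 in 5p (log2 fold change −0.08), and *Sox2* at 3022 and 2701 in scr and 3634 and 3152 in 5p (0.24, adjusted p = 0.23 in limma). *Nanog* stood at 4069 and 2400 in scr and 3388 and 2610 in 5p, lower in set 2 and higher in set 3, with a log2 fold change of −0.07 (95% interval −0.28 to 0.13). The interval holds falls and rises of that order, so neither was resolved.

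Naive pluripotency genes, those of the ground state before implantation, showed no call against scr among 33 tested, with a median of 0.01 (−0.04 in set 2 and 0.03 in set 3). In 3p and SP the median of the same list against scr was −0.27 and −0.25, and in SATS −0.24, all relative to the same scr libraries. The direct test used no scr library. Against 3p, 8 of 33 were higher in 5p, beside 1.3% of all genes called higher, and 1 was lower, with a list median of 0.22. Against SP 7 were higher and 1 lower. *Fgf4*, a growth factor of the inner cell mass, stood at 1505 and 1477 in scr, 1523 and 1668 in 5p and 981 and 672 in 3p (5p minus 3p 0.97, SE 0.123, adjusted p = 0.00088 in limma). *Lifr*, the LIF receptor, stood at 1886 and 1557 in scr, 1879 and 1595 in 5p and 1290 and 976 in 3p (0.63, adjusted p = 0.00088). The 5p libraries were at the level of scr in both genes and above both 3p libraries.

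The others higher in 5p than in 3p included *Nr0b1* (log2 difference 0.72), *Stat3*, which transmits the LIF signal (0.49), *Nr5a2* (0.45), *Jam2* (0.45) and *Sgk1* (0.32). *Pecam1*, an adhesion molecule, was lower (−0.47). *Tfcp2l1*, *Tbx3* and *Prdm14* were below scr in both sets under 5p (log2 fold changes −0.32, −0.40 and −0.34, none called) and differed from 3p by 0.07, 0.06 and 0.32, also not called. *Klf4* and *Esrrb* likewise stood at −0.27 and −0.20 against scr. The naive list was therefore not uniform, with 9 members above and 13 below scr in both sets. None of the 33 passed in 5p against scr, and 3p lies below 5p at most of them.

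**Figure D4:**
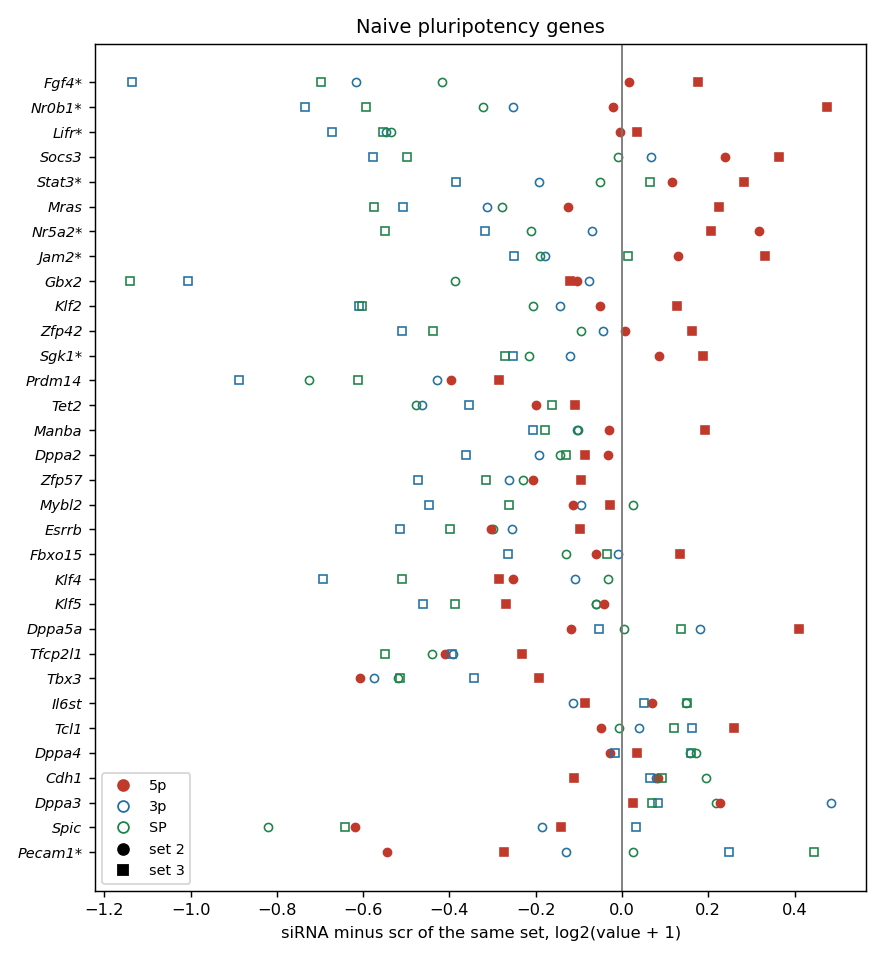
The plot shows 32 of the 33 naive pluripotency genes, ordered by 5p minus 3p, with each library's difference from scr of the same set on the log2(value + 1) scale and asterisks at the 8 of them that passed in 5p against 3p. Filled 5p points scatter around 0, with list medians of −0.04 and 0.03, and most open points of 3p and SP lie to the left, with 27 of the whole 33 below scr in each 3p library.

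Formative and primed pluripotency genes had 1 call of 28, *Fgf5*, a marker of the early epiblast, which stood at 62.9 and 298 in scr and 44.9 and 162 in 5p (log2 fold change −0.68, adjusted p = 0.0174 in limma). It fell within each set, but the groups overlapped. *Dnmt3b* stood at −0.23 and *Dnmt3a* at −0.15, neither called. Nodal, BMP, Wnt and LIF target genes had 1 rise and 2 falls of 33. *Lefty1*, a Nodal antagonist, rose from 311 and 1349 to 426 and 2429 (0.65, adjusted p = 0.00469), with a large difference between sets in both kinds of library and values of 418 and 1935 in 3p. *Pim1*, a kinase induced by LIF, fell by 0.51 on the log2 scale (adjusted p = 0.00469).

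Immediate early and ERK feedback genes, which respond within minutes to growth signals, had 5 falls and no rise of 31, beside 1.71% of all genes called lower and 0.661% higher. The list median was −0.25, and 24 of the 31 stood below scr in both sets, beside 4959 of all 16490 genes. *Ier5* stood at 378 and 161 in scr and 261 and 89.7 in 5p (log2 fold change −0.68, adjusted p = 0.00333 in limma). *Klf10*, induced by TGF-beta, stood at 1426 and 1156 in scr and 961 and 807 in 5p (−0.54, adjusted p = 0.00174), without overlap. *Dusp1*, a MAP kinase phosphatase, stood at 1345 and 677 in scr and 968 and 478 in 5p (−0.49). *Junb* (−0.45) and *Jund* (−0.38) encode AP-1 subunits. *Ier5* alone of the 5 holds the heptamer in its 3′ UTR. The ERK targets *Dusp6*, *Etv5* and *Spred1* stood at −0.06, −0.07 and −0.07, none called. In 3p, SP and SATS the list's median was −0.08, −0.10 and −0.03 against the same scr libraries, and relative to 3p the median in 5p was −0.10 with 7 lower and 1 higher.

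Polycomb genes had 3 falls and no rise of 30, beside 1.71% of all genes called lower, and the list median was 0.04. *Ezh1*, a histone H3 lysine 27 methyltransferase, stood at 357 and 356 in scr and 223 and 212 in 5p (log2 fold change −0.71, adjusted p = 0.00374 in limma). *Kdm2b*, which recruits Polycomb to CpG islands, stood at 1983 and 2394 in scr and 1386 and 1427 in 5p (−0.63, adjusted p = 0.000926). Neither gene's groups overlapped. *Ezh1* holds an octamer in the 3′ UTR and 3 heptamers in the coding sequence, and *Kdm2b* 2 in the coding sequence and 1 in the 3′ UTR of another annotated transcript. *E130012A19Rik* changed by −0.46 and also holds the octamer. In the DNA methylation and silencing list, *Cbx5*, the gene of HP1 alpha, fell from 12229 and 14199 to 9038 and 9102 (−0.54, adjusted p = 0.00674) and *Chaf1a*, a histone chaperone subunit, by 0.34, while the other 26 of 28 were not called. *Trim28* stood at −0.20 and *Tet1* at −0.16.

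Cohesin ring, loader and regulator genes were not called except for *Ctcfl*, the germline paralog of CTCF, which stood at 11.3 and 7.14 in scr and 25.8 and 16.7 in 5p (log2 fold change 1.12, adjusted p = 0.0358 in limma, 18 tested). *Rad21*, *Nipbl*, *Pds5a* and *Wapal* stood between 0.00 and 0.08 in size. Interferon response and RNA sensor genes had 1 rise and 1 fall of 34. *Tlr3*, the endosomal sensor of double-stranded RNA, stood at 11.7 and 12.7 in scr and 38.7 and 25.9 in 5p (1.31, adjusted p = 0.0146), and *Ddx58*, the gene of RIG-I, fell from 620.0 and 481 to 459 and 288 (−0.58, adjusted p = 0.00415). *Ddx58* holds 2 heptamers in its coding sequence. The list median was 0.17, and 0.06, 0.10 and 0.11 in 3p, SP and SATS.

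The RNA interference machinery showed no call of 14, with *Ago2* at 0.03, *Dicer1* at −0.04 and *Drosha* at −0.03. Over 26 genes of cholesterol synthesis and uptake the median was 0.04. *Vegfa* was the sole call of 34 glycolysis and hypoxia genes (−0.50), and *Atf5* of 35 genes of the integrated stress and unfolded protein response (−0.55). Of 40 DNA replication genes *Ccne2*, cyclin E2, rose from 322 and 400.2 to 469 and 618 (0.58, adjusted p = 0.0485, not called by edgeR) and *Cdc6*, a licensing factor, fell by 0.36. Mitosis (40), p53 target (29) and splicing factor (29) genes had no call, with medians of 0.05, 0.03 and 0.04.

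Translation genes were little changed. Of 82 cytosolic ribosomal protein genes none was called, with a median of 0.09, 56 above scr in both sets (5387 of all 16490 genes), and a median of 0.10 in 3p against the same scr libraries. Of 77 mitochondrial ribosomal protein genes 1 was called, *Mrpl49*, which fell from 771 and 773 to 472 and 468 (log2 fold change −0.71, adjusted p = 0.000402 in limma) and holds 2 heptamers in its 3′ UTR. Nucleolar and RNA polymerase I genes had no call of 51 and a median of −0.08, with 26 below scr in both sets, and −0.07 and −0.09 in 3p and SP. Replication-dependent histone genes had none of 59, with a median of 0.28 in set 2 and 0.00 in set 3.

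The two-cell-like state, a rare state of mESC cultures marked by *Zscan4* and its activator *Dux*, had no call among 31 tested genes, with a median of 0.39 (0.06 in set 2 and 0.61 in set 3). Of the 31, 17 stood above scr in both sets and 2 below, beside 5387 and 4959 of all 16490 genes. Relative to 3p the median was 0.44, with 1 gene called higher, and relative to SP 0.53, with 2 called higher. *Zscan4d* stood at 113 and 13.9 in scr and 114 and 29.6 in 5p, and *Dux* at 11.3 and 1.98 in scr and 11.5 and 3.24 in 5p. Summed over 8 markers of this state, chosen apart from the list, the level was 342 and 49.2 in scr and 349 and 110.1 in 5p. This sum of 8 differed more between sets than between siRNAs. Over the 36 list members with values (15 of the 51 listed symbols had none), the lower and higher sums were 4775 and 5432 in scr and 4703 and 5570 in 5p. In bulk RNA, fewer cells of a type and less RNA per cell cannot be told apart, and the same holds for the lineage markers below. *Zscan4* genes are near-identical copies, and their reads may be split between them.

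Lineage markers gave few calls. *Lama1*, a laminin chain of primitive endoderm, rose from 1365 and 659 to 2059 and 1174 (log2 fold change 0.71, adjusted p = 0.00694 in limma), 1 of 17 in its list, and stood at 1259 and 631 in 3p. Of neuroectoderm genes *Sox21* rose (0.57) and *Nes*, the intermediate filament nestin, fell (−0.54), 2 of 14. *Tfap2c* fell by 0.42, 1 of 14 trophectoderm genes, and *Sycp3* was the 1 fall of 21 germline and meiosis genes. Mesoderm genes had no call of 16 and a median of −0.20. Of 14 fibroblast genes *Col1a1* stood at 2223 and 367 in scr and 1849 and 155 in 5p (−0.75, adjusted p = 0.0255) and *Vim* at 8312 and 3336 in scr and 6249 and 2342 in 5p (−0.46, adjusted p = 0.0134). The list was mixed, with 8 of the 14 positive and 6 negative, and a median of 0.03. The sum of 6 fibroblast markers given above was lower in 5p in each set, by more in set 3. It includes *Col1a1*, which alone fell by more than the sum in each set, so the other markers together did not fall. *Ahnak*, *Axl* and *Col1a1* fell further in set 3 as well. The part of such cells in these falls was not tested.

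**Figure D5:**
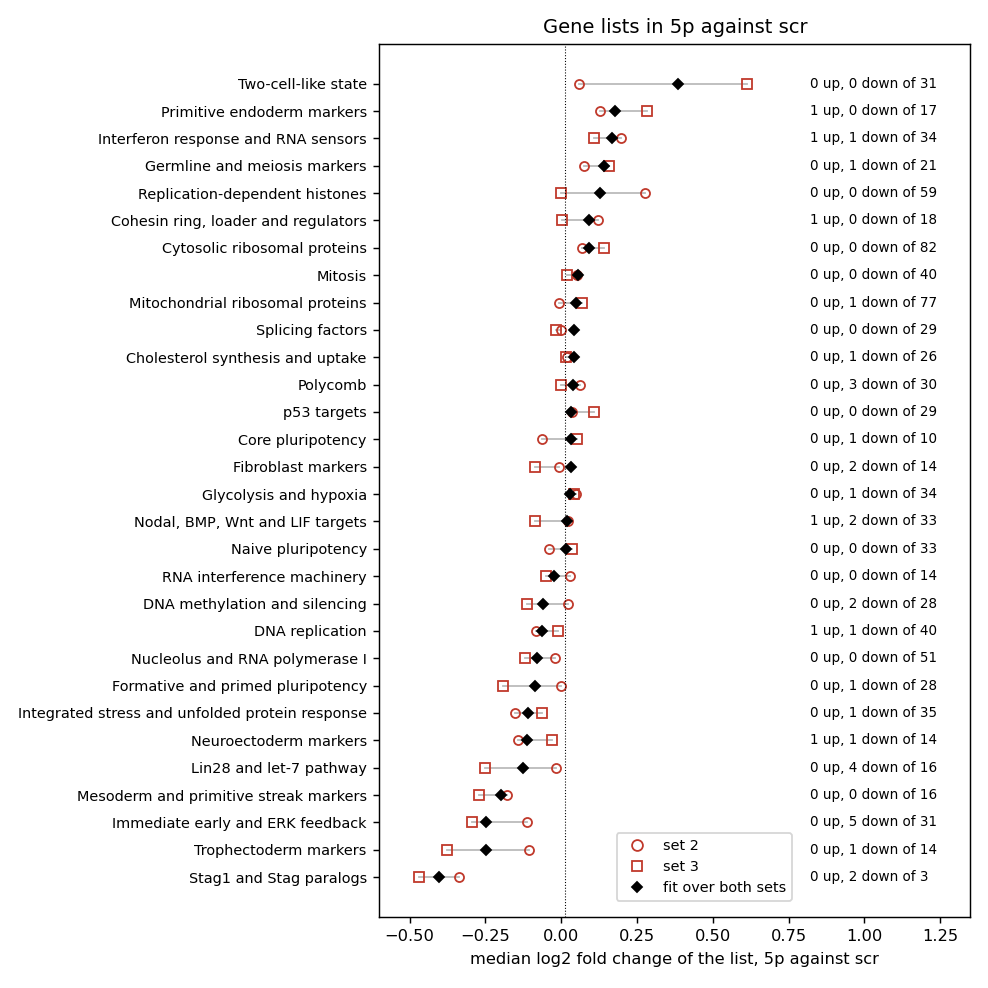
Median log2 fold change in 5p against scr (x axis) of the 30 gene lists, for set 2 (circle), set 3 (square) and the fit over both (diamond), with the number of members called in each direction. Most diamonds lie within 0.2 of the dotted line, the median of all genes (0.01). The list of *Stag1* and its paralogs, trophectoderm and immediate early genes lie furthest left, and the two-cell-like list, whose circle and square lie far apart, furthest right.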

How the data were processed

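RNA-seq values came from the table of serum-grown mESCs (18659 genes). The authors aligned reads to mm10 with HISAT2, counted them with featureCounts and divided the counts by DESeq2 (1.14.1) size factors, so the deposited signal is normalised reads. Whole reads were recovered for 100% of values (tolerance 0.1 reads). The 12 libraries of sets 2 and 3 held 32137666 to 45660840 reads on genes. Depth limits counting error only, since PCR reads are not independent molecules.

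With limma 3.58.1 (eBayes with trend, R 4.3.3), log2(value + 1) was modelled over the 10 libraries of scr, SP, 3p, 5p and SATS in sets 2 and 3, for the 16490 genes whose values summed to 10 or more, with the replicate set as a block. A fold change on this scale understates that of low genes. A call needed an adjusted p under 0.05 (Benjamini-Hochberg, over all genes tested). The labels number the replicate sets, and same-numbered libraries deviated together from their group means (correlations of 0.81 to 0.93 over 11019 genes). The study describes its replicate libraries as independent, without saying in the sources used here whether each set is a separate culture. If not, p-values measure only the spread between these libraries, which may be technical.

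Genes named are *Stag1*, *Stag2*, the 15 largest rises and 15 largest falls among called genes with a mean of at least 50 and the same direction in both sets, up to 8 called genes with 2 or more seed heptamers, and in each list the called members and up to 4 of the highest. Others (*Nanog*, *Sox2*, *Dux*, *Zscan4d* and the naive genes compared with 3p) are members of the lists and were chosen after their values were seen. The comparison, the 30 lists (728 symbols, 23 of them not in the table used) and the seed search were chosen with earlier results of these data known. Of the 18659 genes 18457 matched GENCODE vM21 (GRCm38) symbols, 520 by an older symbol. Motifs were searched on the mRNA strand. The sequence of the duplex is given in the study's methods and is not printed. Fits were tested on simulated data. Alternatives were edgeR 4.0.16 and DESeq2 1.42.0 on the recovered reads, TMM scaling, other pseudocounts and filters, other controls, no block and leaving out each library. Set 1, the 2i samples, and the authors' table for set 1 were not used here. Some members of the lists are not reported here.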

Additional observations from a re-analysis of the deposited data

How the results depend on the processing

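Without the replicate block, in limma, the genes called fell to 2 in 5p against scr (0 higher, 2 lower), 0 against 3p and 0 against SP, with 598, 674 and 925 at an unadjusted p under 0.05. Of 66 named genes called, 65 were no longer called without the pairing by set, and 2 under edgeR. Over the 2 groups compared alone, with the block, 1117 genes passed (453 higher, 664 lower), and with untreated and luciferase libraries as further controls 1119 (421 higher, 698 lower). Leaving out each library in turn gave 22 to 422 genes in 5p against scr (3 to 57 higher, 19 to 365 lower), 84 to 650 against 3p and 151 to 862 against SP, the lone library being assumed to vary like the other groups. The low ends came without scr of set 3 (22), and without 5p of set 3 (84 and 151). *Stag1* stayed called under 14 alternatives (log2 fold change −2.35 to −2.13, adjusted p 4.29e-83 to 0.0017 in limma, edgeR or DESeq2). Other pseudocounts, filters, TMM scaling, edgeR (397 genes) and DESeq2 (512) left the counts within 1.5 times. *Ccnb1* (−0.00498) and *Utf1* (−0.00172), not called, changed sign under edgeR. The median of seed-match genes was −0.06 with the 3′ UTRs of any coding transcript, a choice made after seeing the data. With 2 libraries a group, calls rest on the shared spread and on the pairing.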
